A study of Mus musculus with 2 samples.

Results

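Peaks of open chromatin on chromosomes 1 to 19 that lay more than 100 kb from the nearest transcription start site (TSS) interval of any gene in the count matrix are described here as TSS-distant peaks. They were chosen by position alone and numbered 10666 of 91223 peaks, or 11.7% of all peaks and 11.9% of the 89264 autosomal ones. The TSS interval of a gene is the span from its first to its last start in the matrix, and 435 of 32285 such intervals were themselves wider than 100 kb. The data were from SPARC-seq, in which barcodes are shared between an RNA library and an open chromatin library, here 1 of each. Both were made from brain tissue of C57BL/6 mice at embryonic stage E18.5 that were homozygous for the CTCF-R567W mutation, made by CRISPR/Cas9 editing. Every comparison below lies within these libraries, and without wild-type samples no effect of the mutation was measured. The labels do not say from how many animals the tissue came. All 1993 barcodes of the matrix were also in the fragment file, with 8726497 UMIs of RNA and 8793066 fragments that overlapped autosomal peaks.

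Open chromatin far from promoters often marks enhancers, which bind transcription factors and can act on promoters over long distances. It also marks sites bound by CTCF, a zinc finger protein that, with cohesin, anchors chromatin loops and separates neighboring domains. Distal elements are known to differ between cell types more than promoters do, and genes of neural development often lie beside long stretches without other genes. The assay cuts open DNA with a transposase, so that a peak is counted by the insertions at the ends of the fragments it holds.

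The sequences of GRCm38 below, read 5′ to 3′ on the plus strand, belong to the TSS-distant peaks on which the results turn. The first 3 are 200 bases about the point of densest insertion in the peaks with most counts, shown because their counts were piled on short stretches. Capitals mark letters of the motifs searched below, here the homeodomain letters in the Camk1d window and the GC box letters in the Gphn window. Parts of these 3 windows also occur elsewhere in the genome, as given below, so the letters may not be particular to these introns.
Jarid2 intron, chr13:44869480-44869679: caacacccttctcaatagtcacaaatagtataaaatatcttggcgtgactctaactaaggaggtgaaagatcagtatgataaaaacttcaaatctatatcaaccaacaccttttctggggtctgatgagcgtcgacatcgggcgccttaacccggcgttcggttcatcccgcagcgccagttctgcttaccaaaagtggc
Camk1d intron, chr2:5379261-5379460: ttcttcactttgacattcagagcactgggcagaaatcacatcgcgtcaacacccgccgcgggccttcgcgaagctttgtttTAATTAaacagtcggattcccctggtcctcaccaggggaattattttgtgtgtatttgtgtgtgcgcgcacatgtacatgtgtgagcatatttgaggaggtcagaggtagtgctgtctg
Gphn intron, chr12:78350810-78351009: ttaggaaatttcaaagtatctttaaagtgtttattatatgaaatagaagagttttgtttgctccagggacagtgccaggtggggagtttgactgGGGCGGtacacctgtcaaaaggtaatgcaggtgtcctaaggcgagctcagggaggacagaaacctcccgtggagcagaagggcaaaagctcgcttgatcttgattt

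Another 3 windows of 200 bases belong to the peaks with the highest signal in muscle-rich barcodes relative to other barcodes, and hold no letters of the motifs searched within these bases.
Vps13d intron, chr4:144999931-145000130: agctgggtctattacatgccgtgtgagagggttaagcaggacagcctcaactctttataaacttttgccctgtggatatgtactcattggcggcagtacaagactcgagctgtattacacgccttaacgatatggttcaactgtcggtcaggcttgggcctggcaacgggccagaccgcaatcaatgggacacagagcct
Arid1b intron, chr17:5189798-5189997: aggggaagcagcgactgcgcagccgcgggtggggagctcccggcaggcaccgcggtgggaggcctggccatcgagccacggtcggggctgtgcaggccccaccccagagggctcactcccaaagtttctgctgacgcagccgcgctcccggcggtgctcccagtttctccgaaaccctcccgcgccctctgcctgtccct
Fndc3b intron, chr3:27607484-27607683: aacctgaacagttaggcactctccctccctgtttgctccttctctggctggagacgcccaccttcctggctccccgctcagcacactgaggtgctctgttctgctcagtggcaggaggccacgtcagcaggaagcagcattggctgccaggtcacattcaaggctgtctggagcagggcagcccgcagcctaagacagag

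The peaks with the lowest signal in muscle-rich barcodes relative to other barcodes gave the next 3 windows, which hold none of these letters either. The first of them lies nearest to Nbea and the last nearest to Platr19.
Nbea side, chr3:56698250-56698449: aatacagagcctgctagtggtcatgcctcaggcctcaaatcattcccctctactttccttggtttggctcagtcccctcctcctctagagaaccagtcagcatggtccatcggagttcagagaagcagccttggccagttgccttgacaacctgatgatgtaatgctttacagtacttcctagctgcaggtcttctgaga
Sh3rf3 intron, chr10:59090347-59090546: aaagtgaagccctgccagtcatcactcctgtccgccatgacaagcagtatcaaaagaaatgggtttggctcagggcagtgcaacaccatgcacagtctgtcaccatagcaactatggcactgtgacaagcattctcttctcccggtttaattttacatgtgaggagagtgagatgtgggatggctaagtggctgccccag
Platr19 side, chr12:12680699-12680898: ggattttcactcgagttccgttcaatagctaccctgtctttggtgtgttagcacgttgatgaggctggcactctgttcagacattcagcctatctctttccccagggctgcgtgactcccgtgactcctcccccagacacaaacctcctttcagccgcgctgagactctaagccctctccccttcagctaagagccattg

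The last set gives 29 bases about the match to the CTCF core consensus, in capitals, in the 3 matching peaks with most counts. It is shown because matches were few in TSS-distant peaks. The first lies in a peak that overlaps an exon and is nearest to Gm31371. Of the 31-base words in the 200 bases about its densest insertions only 14.7% were unique, with up to 6 copies. The peak of the Skap2 exon is also among those whose signal varied most over barcodes.
Exon peak nearest to Gm31371, chr8:20122191-20122219: tataggggCCACCAGAGGGCGcgaggcgg
Skap2 exon, chr6:51858059-51858087: caagctgcTGCCATCTGCTGGccacttag
Speer3 side, chr5:13629235-13629263: agcaagcgCGCCACCTACTGGtcaatatg

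The name gene desert did not describe these peaks well. Of the 10666 peaks, 4474 (41.9%, exact Clopper-Pearson 95% interval 41.0 to 42.9%) overlapped the body of an annotated gene. Introns held 3940 of them and exons 534, and 6192 (58.1%) were intergenic. Among peaks 10 to 100 kb from a TSS interval, 53.8% lay in gene bodies, and among peaks within 1 kb 96.7% did. The 712 protein-coding genes that held TSS-distant peaks had a median length of 314 kb, against 17.6 kb for all protein-coding genes. A short gene has no room for a peak more than 100 kb from its own TSS interval, so this contrast was largely set by the rule. All intervals given here cover counting error only, since PCR copies and barcodes are not independent samples.

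The distance also depended on which starts were counted. The matrix gives TSS intervals for its own gene rows, whereas GENCODE M21 and RefSeq list further transcripts, many of them non-coding or predicted. A transcript start of GENCODE lay within 100 kb of 7328 of the 10666 peaks (68.7%), and one of either annotation within 100 kb of 8619 (80.8%). A start of either annotation lay within 1 kb of 530 peaks, or 4.97% (4.56 to 5.40%). The 2047 peaks with no start of either annotation within 100 kb had a median of 72 raw counts. At the limit of the rule, the nearest peak inside it was chr6:108424827-108425682, with 107 raw counts at 100004 bases from Gm44040. The nearest outside it was chr17:4734976-4735878, with 115 raw counts at 99997 bases from 4930517M08Rik. The farthest peak, chr5:79219997-79220980, had 81 raw counts at 1734 kb from Gm42761, and the median distance was 169 kb.

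TSS-distant peaks were as wide as other peaks but held fewer counts. Their median width was 878 bases, against 872 to 877 bases in the nearer classes. They had a median of 77 raw counts (quartiles 61 and 104), whereas peaks within 1 kb of a TSS interval had 205, peaks at 1 to 10 kb 105 and peaks at 10 to 100 kb 94. As a class they took 984617 of 16354599 counts in autosomal peaks, or 6.02% (6.01 to 6.03%), while they made up 11.9% of the peaks. These counts hold both ends of a fragment, which are 1 molecule, so this interval is too narrow. With fragments counted once the share was 6.00% (5.98 to 6.01%). Only 62 TSS-distant peaks (0.581%) reached 200 fragments, against 7444 peaks (30.4%) within 1 kb of a TSS interval. The counts fell further with distance. The median was 82 for the 6569 peaks at 100 to 200 kb, 72 for the 3521 at 200 to 500 kb, 64 for the 521 at 500 to 1000 kb and 57 for the 55 beyond 1000 kb. Peaks in gene bodies had a median of 82 and intergenic ones 74.

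**Figure D1:**
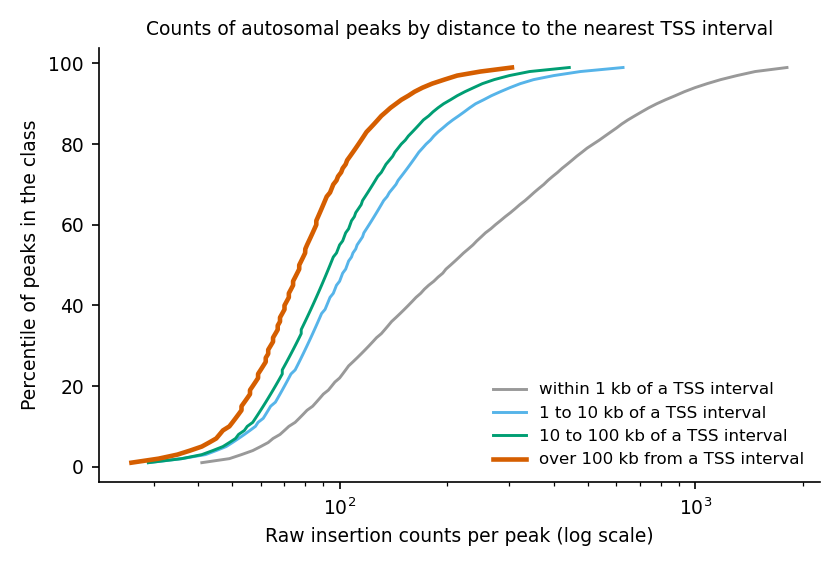
Raw insertion counts per peak on a log axis against the percentile of peaks in each of 4 classes of distance to the nearest TSS interval, drawn from percentile 1 to 99. The curve of the 10666 TSS-distant peaks, with a median of 77, lies left of the 3 nearer classes, whose medians are 94, 105 and 205.

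Along the chromosomes, TSS-distant peaks were sparse but seldom absent. Sequence more than 100 kb from every TSS interval made up 625 Mb, or 26.1% of the known autosomal sequence, and held 17.1 peaks per Mb, against 44.4 other peaks per Mb of the rest. The density was 23.2 per Mb at 100 to 200 kb, 14.1 at 200 to 500 kb, 6.55 at 500 to 1000 kb and 4.30 beyond. This sequence fell into 2140 stretches of at least 10 kb, of which 378 held no peak. None of the 117 stretches longer than 1 Mb was without one. The longest empty stretch measured 536 kb and lay on chromosome 5 between Gm31752 and 4921504A21Rik. By chromosome the density ran from 12.9 per Mb on chromosome 10 to 22.9 per Mb on chromosome 9.

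The 3 longest stretches were thinly filled. The stretch chr3:41846486-45278259 measured 3432 kb and held 21 peaks with a median of 62 raw counts. The stretch chr5:77585728-80921201, which ends near Adgrl3, the gene of a latrophilin adhesion receptor, measured 3335 kb and held 23 peaks with a median of 60. The stretch chr5:54449992-57617919 measured 3168 kb and held 14 peaks with a median of 60.5. The densest stretches, picked after their values were seen, were shorter. A stretch of 560 kb at Sox6, which encodes a transcription factor of neural, cartilage and muscle development, held 42 peaks or 75 per Mb. Part of it lay inside the body of Sox6. The 642 kb beside the non-coding gene Gm4230 held 41 or 63.9 per Mb. A stretch of 721 kb at Rbms3, which encodes an RNA-binding protein, held 40 peaks or 55.5 per Mb and lay mostly inside the body of Rbms3.

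Many of the peaks stood in groups. With gaps of at most 50 kb between neighbors, the 10666 peaks formed 3841 groups, 1715 of which were single peaks. The 596 groups of at least 5 peaks held 4929 of them (46.2%). The median gap between neighbors was 24.9 kb, below the limit of 50 kb. Grouping was not compared with that of other peaks, and how much of it follows from density alone was not tested. The largest group, chr12:79471725-79811549, held 42 peaks with 104 raw counts at the median, all of them inside Rad51b, whose product takes part in repair by homologous recombination. The next, chr9:116762302-117151630, held 29 peaks with a median of 82 inside Rbms3. The group chr5:110996771-111230199 held 28 peaks with a median of 129 inside Ttc28. The peaks of these 3 groups share a locus and are not independent of each other.

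Some genes were nearest to many TSS-distant peaks. The 10666 peaks had 2637 nearest genes, and the 213 genes with at least 10 peaks each held 2863 of them. The nearest gene was protein-coding for 56.5% of the peaks, against 68.1% over all autosomal peaks, and it had at least 10 UMIs for 64.2%, close to the 66.2% of peaks at 10 to 100 kb. The protein-coding genes nearest to most peaks were Rbms3 with 30, Tle4, a Groucho corepressor, with 28, Sox6 with 27, Bmper, which encodes a regulator of bone morphogenetic protein signaling, with 26, and Pard3, which encodes a cell polarity protein, with 24. They were followed by Rapgef2, whose product activates Rap, with 23, and by Map3k7, which encodes the kinase TAK1, with 22, as many as Nr5a2, which encodes a nuclear receptor. The non-coding genes Gm4230, 9430078K24Rik and 4930435M08Rik were nearest to 31, 26 and 24 peaks, with 4, 6 and 0 UMIs.

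The genes with most peaks inside their bodies were long, which the distance rule itself favors. After Rad51b with 42 peaks came Gpc6, which encodes a glypican of the cell surface, with 41, and Rbms3 with 37. Ptprn2, whose product belongs to dense-core vesicles, and Cdh13, which encodes a cadherin without a cytoplasmic domain, held 30 each. Ttc28 held 28, the histone methyltransferase gene Smyd3 25, the delta-catenin gene Ctnnd2 25, Macrod2, which encodes an ADP-ribose hydrolase, 25, and Arid1b, which encodes a subunit of the BAF chromatin remodeler, 24. The RNA of these genes ranged from 37.5 CPM (counts-per-million of UMIs) for Rad51b to 1080 for Ctnnd2. Macrod2, at 1998 kb the longest of them, held fewer peaks than Rad51b at 517 kb.

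Gene lists drawn up by symbol described the nearest genes further. Genes of homophilic and synaptic adhesion were nearest to 278 of the peaks, 2.61% (2.31 to 2.93%), against 1.01% of all autosomal peaks, and 45 of the 80 genes of the list took part. Cdh26 had 20 peaks, and Cntnap5b and Flrt2, which encode neuronal adhesion proteins, had 14 each. Genes of ion channels and transmitter receptors were nearest to 181 peaks, 1.70% (1.46 to 1.96%), against 1.18%, with 43 of 202 genes. The ionotropic glutamate receptor family genes Grid1 and Gria1 had 16 and 14 peaks, and the potassium channel gene Kcnj3 had 11. Developmental transcription factor genes were nearest to 143 peaks, 1.34% (1.13 to 1.58%), against 0.975%, and 26 genes of the list took part. Sox6 had 27 of these peaks, Nfia 16 and Meis2 10, so that Sox6 alone gave 27 of the 143. Olfactory and vomeronasal receptor genes were nearest to 13 peaks, 0.122% (0.0649 to 0.208%), against 0.379%, with 5 of 1413 genes. Peaks next to the same gene share a locus, and the intervals do not allow for this. Genes packed closely leave little sequence more than 100 kb from every TSS interval. The distance rule itself therefore shapes these shares, and lists were not compared at matched gene spacing.

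The few TSS-distant peaks with very high counts were unlike the rest. The highest count was 4441, in the peak chr13:44869260-44870141 in an intron of Jarid2, which encodes a partner of Polycomb repressive complex 2. It was followed by 3297 counts in chr2:5378702-5379728, in an intron of the calmodulin-dependent kinase gene Camk1d, and by 2737 in chr12:78350512-78351445, in an intron of Gphn, which encodes the inhibitory synapse scaffold gephyrin. The top 10 peaks held 2.01% of the counts of all TSS-distant peaks, and the top 106 (1%) held 6.29%. In the first 3 peaks, whose sequences are printed above, the densest 51 bases took 43.6%, 48.3% and 36.5% of the insertions, against a median of 19.3% over the class. Of the 31-base words in the 200 bases printed, 40.6%, 73.5% and 56.5% occurred only once in the assembled chromosomes. The median TSS-distant peak had no repeated word in its central 300 bases. Copies missing from the assembly were not counted, so words may have more copies than given here. The most frequent word of the Jarid2 window occurred 4915 times, and those of the Camk1d and Gphn windows 9 and 6 times. How reads with several places in the genome were assigned is not given in the sources used here, and whether this set the counts was not tested.

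Other peaks of high count were made almost entirely of short fragments. Short fragments, which are shorter than the DNA wound on a nucleosome core, made up 99.7% of the 632 fragments of chr15:41276528-41277425 near Oxr1, 98.1% of the 625 of chr12:107319188-107320083 near Gm2800 and 98.9% of the 619 of chr4:7391329-7392226 near 8430436N08Rik. The median over TSS-distant peaks of at least 50 fragments was 48.4%. At least 90% short fragments were found in 61 of the 3595 TSS-distant peaks with at least 50 fragments, or 1.70% (1.30 to 2.17%), against 0.155% within 1 kb of a TSS interval, 0.448% at 1 to 10 kb and 0.460% at 10 to 100 kb. These 61 peaks had a median of 230 raw counts, against 119 in the others of at least 50 fragments, and 22 of them stood among the 100 highest counts of the class. Their densest 51 bases took 46.9% of insertions at the median, against 17.5%, and their GC content was 40.3%, against 49.7%. They held 2.03% of the counts of the class, which took 5.94% of autosomal peak counts without them.

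To describe how the peaks varied within the tissue, barcodes were summed by the second of their 2 segments of 8 bases, which gave 48 sums called strips. The layout of the barcodes on the tissue is not given in the sources used here. Peak fragments per strip ranged from 3574 to 438171, and the 3 strips under 20000, with 18 barcodes in all, were left out of ranges over strips. RNA of the 12 muscle genes fixed as markers, Myh3, Myh8, Acta1, Ckm and others, was detected for all 12 and summed to 6182 CPM over the library, against 4071 CPM for the 8 neuron genes, although the tissue was labelled as brain. The 6 strips with the highest muscle RNA, called muscle-rich, held 12280 to 18126 CPM of it. The 39 other strips of at least 20000 fragments held 3637 to 6617 CPM, and all 42 others, with the shallow ones, 3196 to 7959 CPM. Pooled, the muscle-rich strips had 13850 CPM of muscle RNA against 4565, with all 12 genes higher. They were chosen by the sum of these genes, so this difference was set by the choice. Of the 7 fibroblast and bone genes, not used in the choice, they had 3115 CPM against 1129. They had 561 CPM of the 6 epithelial genes against 105, with Scgb1a1, the club cell secretoglobin gene, at 0, and 2879 CPM of the 8 neuron genes against 4323, with none of the 8 higher. Erythroid RNA was at 7193 CPM against 6646, and the forebrain genes at 410 against 489, with none of 6 higher. They were also deeper, with a median of 367010 peak fragments against 180688. Fewer cells of a type and less RNA per cell cannot be told apart in such sums.

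TSS-distant peaks took a smaller share of the open chromatin in muscle-rich strips. The share of autosomal peak fragments in these peaks was lowest at 5.01%, 5.31% at the median and 5.47% at the highest in the 6 muscle-rich strips. In the 39 other strips of at least 20000 fragments it was lowest at 5.34%, 6.29% at the median and 6.81% at the highest. The muscle-rich strips were at the low end, and 1 of the 39 other strips lay within their range. Pooled, the shares were 5.25% (5.22 to 5.28%) and 6.24% (6.22 to 6.26%), a fold of 0.842 (0.836 to 0.848, conditional binomial interval). The same fold was 1.02 for peaks within 1 kb of a TSS interval, 1.05 at 1 to 10 kb and 0.984 at 10 to 100 kb, so the fold departed most from 1 in TSS-distant peaks. It was 0.862 for the peaks at 100 to 200 kb, 0.805 at 200 to 500 kb and 0.802 beyond 500 kb. It was 0.903 in exons, 0.852 in introns and 0.828 between genes. At matched depth, the fold of TSS-distant peaks was 0.848 under 50 fragments, 0.844 at 50 to 100, 0.822 at 100 to 200 and 0.813 from 200, against 0.964, 1.003, 0.997 and 0.924 for peaks at 10 to 100 kb.

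The share of TSS-distant peaks moved with several measures of the strips at once. Over the 45 strips of at least 20000 fragments, its Spearman correlation was -0.62 with muscle RNA, -0.65 with fibroblast and bone RNA, 0.51 with neuron RNA, 0.07 with forebrain RNA and -0.52 with the number of peak fragments. Low shares were not confined to muscle-rich strips. The lowest shares of the other strips were 5.34%, 5.47% and 5.63%. Those strips held 2440, 1726 and 1869 CPM of the pituitary genes Gh, Prl, Pomc and Cga, against 185 over the library. Their muscle RNA was 6617, 6319 and 4789 CPM. The 45 strips share 1 library and its depth, and the part of each of these measures in the result was not tested. The share ran from 5.01% (4.95 to 5.07%) in a muscle-rich strip of 438171 peak fragments to 6.81% (6.70 to 6.92%) in a strip of 186927 that was not muscle-rich. Over the 50 first segments of the barcodes it ran from 5.42% to 6.49%. The dispersion beyond counting error of the whole class, the variance in excess of Poisson over the squared mean, was 0.00157 over the first segments and 0.00745 over the second.

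**Figure D2:**
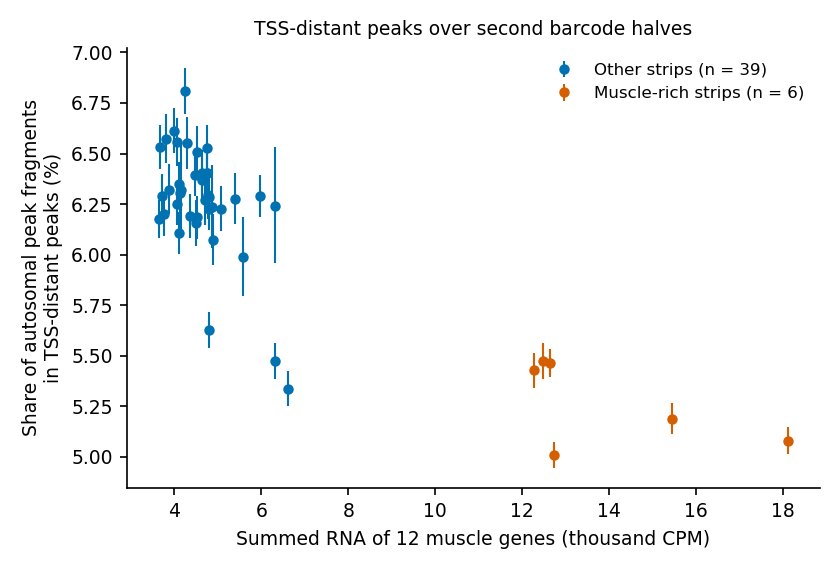
Share of autosomal peak fragments in TSS-distant peaks (%, points with exact 95% intervals for counting error) against the summed RNA of 12 muscle genes (CPM in units of 1000) for the 45 strips of at least 20000 peak fragments. The 6 muscle-rich strips lie between 5.01% and 5.47%, and the 39 others between 5.34% and 6.81%.

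By single peak, more TSS-distant peaks were lower than higher in muscle-rich strips. Of the 3595 with at least 50 fragments, 926 (25.8%, 24.3 to 27.2%) were at least 2 times lower, against 13.6% of all 53447 autosomal peaks of that depth. At least 2 times higher were 253 (7.04%, 6.22 to 7.92%), against 8.75%. The interval of the fold lay wholly below 1 for 926 (25.8%), against 17.6% of autosomal peaks, and wholly above 1 for 385 (10.7%), against 17.6%. The median fold was 0.747, whereas it was 1.001 within 1 kb of a TSS interval, 1.01 at 1 to 10 kb and 0.928 at 10 to 100 kb. Among the 62 peaks of at least 200 fragments, 12 (19.4%, 10.4 to 31.4%) were at least 2 times lower and 3 (4.84%, 1.01 to 13.5%) at least 2 times higher. The background shares at that depth were 4.98% and 3.33% of 8659 autosomal peaks, of which 7444 lay within 1 kb of a TSS interval. For peaks at 10 to 100 kb they were 15.0% and 8.92%, and the intervals for TSS-distant peaks held both. With at least 50 fragments, 16.4% of peaks at 10 to 100 kb were at least 2 times lower and 10.1% at least 2 times higher.

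**Figure D3:**
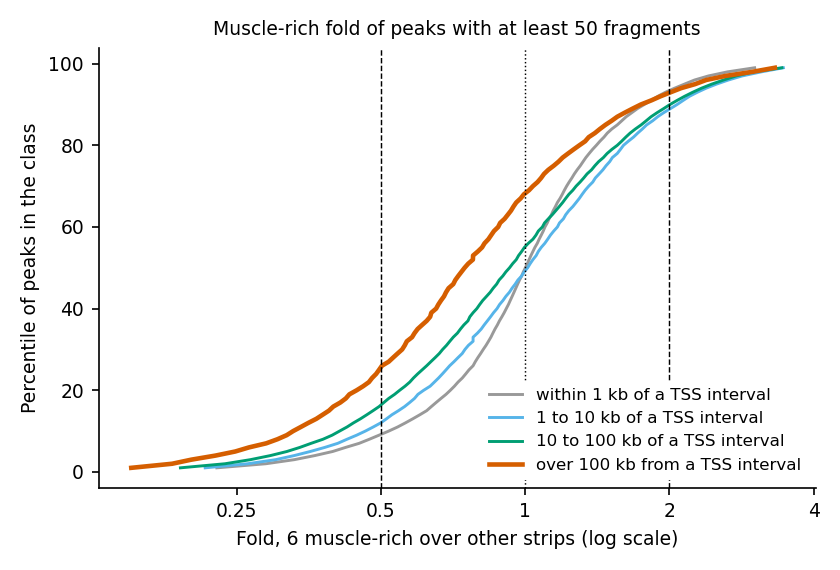
Fold of muscle-rich over other strips (log axis) against the percentile of autosomal peaks with at least 50 fragments, by class of distance to the nearest TSS interval. The dotted line marks no difference and the dashed lines 2 times lower and higher. The TSS-distant curve crosses 2 times lower at about 25.8% of its 3595 peaks and has its median at 0.747.

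The spread over strips was also wider. A dispersion over strips of at least 0.1 was found for 27 of the 62 TSS-distant peaks of at least 200 fragments, or 43.5% (30.99 to 56.7%), against 16.1% of all autosomal peaks of that depth. The share was 12.8% within 1 kb of a TSS interval, 31.4% at 1 to 10 kb and 39.2% at 10 to 100 kb, so the interval for TSS-distant peaks held the last of these. Since counting error weighs more in peaks of fewer fragments, the depths were also compared apart. At 200 to 300 fragments 20 of 37 TSS-distant peaks passed, against 46.6% of peaks at 10 to 100 kb, and from 300 fragments 7 of 25 did, against 23.9%. With the minimum lowered to 50 fragments, 2088 of 3595 (58.1%, 56.4 to 59.7%) passed, against 45.1% of all autosomal peaks and 53.2% at 10 to 100 kb. Depths were not matched in this comparison, and TSS-distant peaks held the fewest counts. The limit of 0.1 was tried only on simulated peaks of at least 200 fragments, so counting error may carry many shallower peaks past it.

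The 3 peaks with the highest folds lay in introns of Vps13d, Arid1b and Fndc3b. They were picked by these folds among the 62 peaks of at least 200 fragments, so the values are a description. In chr4:144999643-145000524, in an intron of the lipid transfer gene Vps13d, the 6 muscle-rich strips had 15.1, 42.8 and 77.0 FPM (fragments-per-million of the autosomal peak fragments of a strip) at the lowest, median and highest, and the 39 other strips 0, 9.87 and 75.4. Most other strips lay below all muscle-rich ones, but 15 of the 39 lay above the lowest. The fold was 2.54 (1.90 to 3.37), and RNA of the nearest gene, Dhrs3, a retinaldehyde reductase gene, had a fold of 1.68 (1.19 to 2.35, 187 UMIs). In chr17:5189560-5190457, in an intron of Arid1b, the muscle-rich strips had 77.6, 89.5 and 98.0 and the others 4.93, 34.1 and 97.7. Here only 2 of the 39 other strips lay above the lowest muscle-rich one, and the fold was 2.34 (1.93 to 2.83), while Arid1b RNA had a fold of 1.04 (0.941 to 1.15). In chr3:27607194-27608052, in an intron of Fndc3b, the values were 22.0, 39.7 and 61.6 in muscle-rich and 0, 16.4 and 110 in other strips, with 10 of the 39 above the lowest muscle-rich strip. The fold was 2.31 (1.74 to 3.06), and Fndc3b RNA had a fold of 1.42 (1.21 to 1.65).

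The other 7 peaks of the 10 highest folds had folds of 1.44 to 1.92. A pair of them stood in introns of Gse1, at chr8:120368525-120369424 and chr8:120382292-120383202, with folds of 1.92 (1.53 to 2.40) and 1.62 (1.34 to 1.94), and Gse1 RNA had a fold of 1.003 (0.898 to 1.12). The peak chr19:22916395-22917289 had a fold of 1.65 (1.29 to 2.09). By GENCODE it lay in an intron of the cation channel gene Trpm3, but by RefSeq it overlapped an exon of that gene. A RefSeq transcript start lay 0.388 kb from it. The peak chr11:8468262-8469111 overlapped an exon of the focal adhesion gene Tns3 and an annotated GENCODE start, with a fold of 1.53 (1.13 to 2.07), and Tns3 RNA had a fold of 1.96 (1.503 to 2.54). The peak chr4:56113410-56114295, 110 kb from 2310081O03Rik, had a fold of 1.83 (1.42 to 2.37). The peak chr1:112457111-112458138, 592 kb from Dsel, had a fold of 1.45 (1.11 to 1.89), but 97.0% of its fragments were short. The last, chr18:5819605-5820472, had a fold of 1.44 (1.15 to 1.79).

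Among the 62 peaks of at least 200 fragments the lowest folds were further from 1 than the highest, and were likewise picked by value. This minimum sums all strips, and other strips held most of the peak fragments. It therefore admits peaks low in muscle-rich strips more readily than peaks high there, so the 2 ends of the ranking are not comparable. The peak chr3:56698019-56698899 lies 514 kb from Nbea, which encodes a protein of membrane traffic in neurons, and an exon of the RefSeq non-coding gene Gm32237 (chr3:56698422-56698572) lies inside it. It had 3.88, 5.97 and 10.1 FPM at the lowest, median and highest of the muscle-rich strips and 0, 26.9 and 83.5 in the others. Of the 39 other strips 5 lay below the highest muscle-rich one. The fold was 0.228 (0.122 to 0.392), and Nbea RNA had a fold of 0.826 (0.768 to 0.887, 5887 UMIs). In chr10:59090030-59090922, in an intron of Sh3rf3, the values were 4.60, 6.63 and 15.98 against 0, 26.7 and 51.6, with 9 other strips below the highest muscle-rich one and a fold of 0.276 (0.157 to 0.453). In chr12:12680234-12681137, 107 kb from Platr19 by the matrix and 1.48 kb from a further GENCODE start, they were 3.88, 9.37 and 12.6 against 0, 24.9 and 86.0. There 6 other strips lay below the highest muscle-rich one, and the fold was 0.305 (0.180 to 0.489).

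Muscle-rich medians were also below the medians of other strips in the next 7 peaks of this set. The peak chr14:25585518-25586381 in an intron of the coregulator gene Zmiz1 had 11.9 to 20.7 FPM in muscle-rich strips and a median of 44.5 in the others, a fold of 0.353 (0.241 to 0.501). The peak chr8:14381419-14382266 overlapped an exon and a GENCODE start of Dlgap2, which encodes a postsynaptic scaffold protein. Its fold was 0.372 (0.228 to 0.581), and that of Dlgap2 RNA 0.779 (0.682 to 0.887). The peak chr14:66494381-66495275, 140 kb from the adrenergic receptor gene Adra1a, had 7.33 to 19.4 FPM in muscle-rich strips, and 36 of the 39 other strips lay above that range. Its fold was 0.389 (0.257 to 0.570), whereas Adra1a RNA had a fold of 1.404 (1.01 to 1.92). The fold was 0.407 in chr2:21917848-21918809 near the myosin gene Myo3a and 0.413 in chr18:23309664-23310490 at the dystrobrevin gene Dtna. It was 0.449 in chr8:86389597-86390619 near Abcc12 and 0.480 in chr7:62230908-62231785 near Gm9801. By RefSeq the peak at Dtna overlapped an exon of that gene (chr18:23310006-23310271) and a transcript start. A start of GENCODE or RefSeq lay within 1 kb of 4 of these 10 peaks, those beside Nbea, at Dtna and in Zmiz1 and Dlgap2. Of all 62 peaks of at least 200 fragments, 11 had such a start within 1 kb, and the fold of all 10136 peaks without one was 0.839 (0.833 to 0.845).

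The 3 peaks with most counts were also lower in muscle-rich strips. Since many of their 31-base words occur elsewhere in the genome, the values may not measure these loci alone, which was not tested. The Jarid2 intron had 124, 142 and 161 FPM in muscle-rich strips and 192, 293 and 414 in the others, so the groups did not overlap, and the fold was 0.499 (0.441 to 0.563). The Camk1d intron had 80.7, 115 and 143 against 105, 205 and 329, with 3 other strips below the highest muscle-rich one and a fold of 0.542 (0.471 to 0.621). The Gphn intron had 77.2, 92.2 and 128 against 104, 168 and 283, with 4 such strips and a fold of 0.571 (0.491 to 0.661). RNA of Gphn had a fold of 1.51 (1.41 to 1.62). The 3 short-fragment peaks of the top 10 had folds of 0.919, 0.983 and 1.005, with dispersions over strips of 0.0025 to 0.0289. Among the 12 short-fragment peaks of at least 200 fragments, none was 2 times higher or lower in muscle-rich strips. Over all autosomal peaks of that depth 3.33% were higher and 4.98% lower, so none of 12 is little below these shares. A dispersion of at least 0.1 was found for 4 of the 12, against 16.1% of autosomal peaks.

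**Figure D4:**
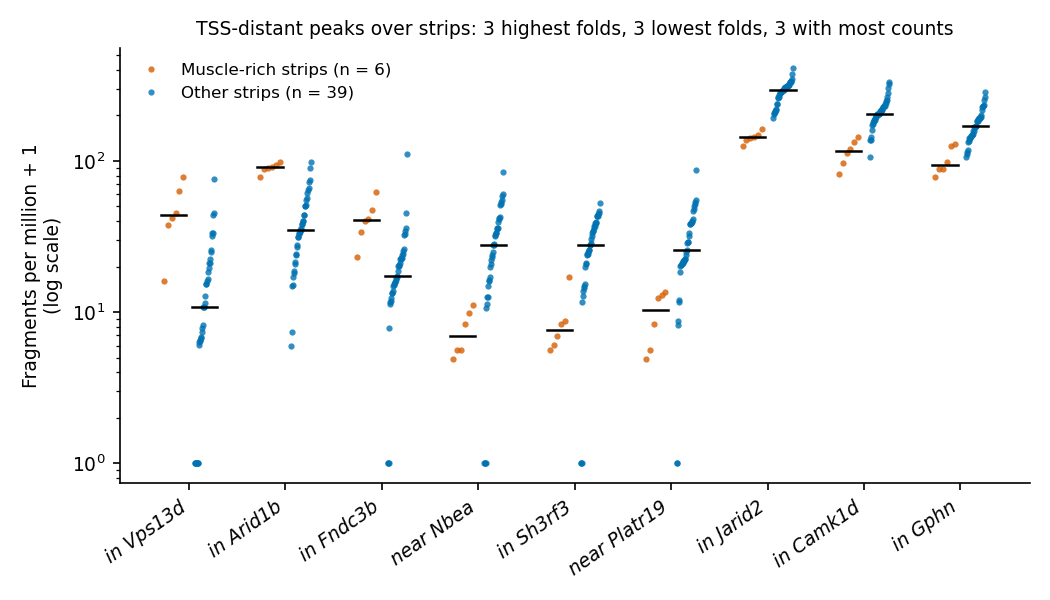
FPM (fragments-per-million of the autosomal peak fragments of a strip) plus 1 (log axis) in each of the 6 muscle-rich and 39 other strips, for the 3 TSS-distant peaks with the highest folds, the 3 with the lowest and the 3 with most counts, among peaks of at least 200 fragments. Points within a group are ordered by value and black lines are medians. The muscle-rich strips lie above most others in the first 3 peaks and below most in the other 6.

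Several of the peaks that varied most over strips have been described above. The highest dispersion was 0.564, in the Vps13d intron, followed by 0.561 in the peak beside Nbea, 0.332 in an intron of Arhgap42, 0.257 in the peak beside Platr19, 0.235 in the one beside Gm9801 and 0.226 in the Arid1b intron. Without the 3 shallow strips the value beside Nbea was 0.424, and that in Vps13d 0.574. The peak in the Arhgap42 intron, chr9:9121318-9122199, had 92.2% short fragments and a fold of 0.537 (0.352 to 0.794). The peak chr6:103138141-103139196, 371 kb from the neural adhesion gene Chl1, had 0.195 with 97.4% short fragments and a fold of 0.725 (0.510 to 1.01). The peak chr6:51857544-51858463 in an exon of Skap2, which carries a CTCF consensus match, had 0.191 and a fold of 0.616 (0.418 to 0.885).

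Summed by gene, the peaks of different loci moved in different directions. The 42 peaks in Rad51b had 366 to 442 FPM in muscle-rich strips and 161 to 450, with a median of 274, in the others. Their fold was 1.44 (1.33 to 1.57), and Rad51b RNA had a fold of 1.56 (1.199 to 2.01, 327 UMIs). The 30 peaks in Ptprn2 lay the other way, with 101 to 154 in muscle-rich strips and 203 to 369 in the others, which did not overlap. Their fold was 0.450 (0.393 to 0.513), and Ptprn2 RNA, with 4403 UMIs, had a fold of 0.814 (0.748 to 0.885). The peaks of Cdh13, Ctnnd2 and Macrod2 had folds of 0.674, 0.680 and 0.787, and the RNA of these genes 0.927, 0.821 and 0.791. In Gpc6, Ttc28 and Smyd3 the intervals of the fold held 1, with folds of 0.990 (0.890 to 1.10), 1.03 (0.929 to 1.13) and 0.956 (0.846 to 1.08). In Rbms3 and Arid1b the folds were 1.12 (1.01 to 1.24) and 1.13 (1.03 to 1.253). RNA of a gene and the opening of peaks inside it come from the same barcodes, and 10 loci give no test of their relation.

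RNA of the genes nearest to these peaks was compared between the same strips. The 12 peaks at least 2 times lower in muscle-rich strips had 7 nearest genes with at least 50 UMIs, and the median RNA fold of these genes was 0.851. The 3 peaks at least 2 times higher had 3 such genes with a median of 1.42. Over all 12502 autosomal genes of at least 50 UMIs the median was 0.989. With so few genes, picked through peaks chosen by their folds, these medians are a description.

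Base composition set TSS-distant peaks apart from promoters most. Their central 300 bases had a median GC content of 47.3%, against 57.3% within 1 kb of a TSS interval, 51% at 1 to 10 kb and 50% at 10 to 100 kb. The ratio of observed to expected CpG was 0.192 at the median, against 0.541, 0.240 and 0.228 in the same order. Repeats covered more than 50% of 5.76% of the peaks, against 0.936%, 3.68% and 3.46%. All 31-base words were unique in 82.3% of the peaks, close to the 83.9% at 10 to 100 kb.

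CTCF consensus matches were rare in TSS-distant peaks. An exact match to the CTCF core consensus on either strand stood in the central 300 bases of 62 of the 10666 peaks, or 0.581% (0.446 to 0.745%). The share was 2.16% at 10 to 100 kb, 3.23% at 1 to 10 kb, 1.17% within 1 kb and 1.87% over all autosomal peaks. Among peaks of 40 to 50% GC it was 0.610% (0.436 to 0.830%), against 2.08%, 3.10% and 1.69% in the nearer classes, from 10 to 100 kb inward. In the 62 peaks the match lay 24.5 bases at the median from the densest insertions, and in 60 of them within 100 bases. These peaks had a median of 119 raw counts, against 77 in those without a match, and a fold of 0.726 (0.674 to 0.781) in muscle-rich strips, against 0.843. The matching peaks with most counts, whose matches are printed above, had 542, 435 and 367 raw counts. A match is a description of letters, not a bound site, and binding of the mutant protein was not measured here.

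Other motifs were searched in the same windows and on both strands. The homeodomain letters TAATTA stood in 7.60% of TSS-distant peaks (7.11 to 8.12%), against 5.57% at 10 to 100 kb and 4.87% over all autosomal peaks. Among peaks of 40 to 50% GC the shares were 8.62% and 7.28%. The octamer ATGCAAAT stood in 2.10%, against 1.57% over all autosomal peaks, and the MEF2 consensus, which can share letters with TAATTA, in 3.34%, against 2.31%. The E-box CAGATG, read by many proneural factors, stood in 28.4% (27.6 to 29.3%), against 24.1%, and the E-box CAGCTG in 23.5%, against 23.7%. The SOX letters ACAATGG stood in 4.84%, against 3.97%, and the AP-1 letters TGANTCA in 10.5%, against 9.59%. The RUNX letters AACCACA stood in 7.24%, against 6.59%, and the TEAD letters CATTCCA in 5.65%, against 5.21%. At 10 to 100 kb the AP-1, RUNX and TEAD shares were 10.9%, 7.57% and 5.94%, each above that of TSS-distant peaks. Among peaks of 40 to 50% GC the SOX, octamer and MEF2 shares were 5.03%, 2.24% and 3.57%, against 4.88%, 2.08% and 3.32% at 10 to 100 kb. The GC box GGGCGG, common in promoters, stood in 4.15%, against 17.7% over all autosomal peaks, and the ETS letters CCGGAAG in 1.31%, against 4.17%. At 10 to 100 kb the shares were 8.05% and 1.81%. Among peaks of 40 to 50% GC the GC box share was 2.24%, against 3.26% at 10 to 100 kb. The ETS share was 0.885%, against 1.04%, with intervals that overlapped. The NFI palindrome, TTGGC and GCCAA spaced by 5 bases, stood in 5 peaks, 0.0469%, against 0.0527% over all autosomal peaks. No match in a window says only that these letters are not in it.

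**Figure D5:**
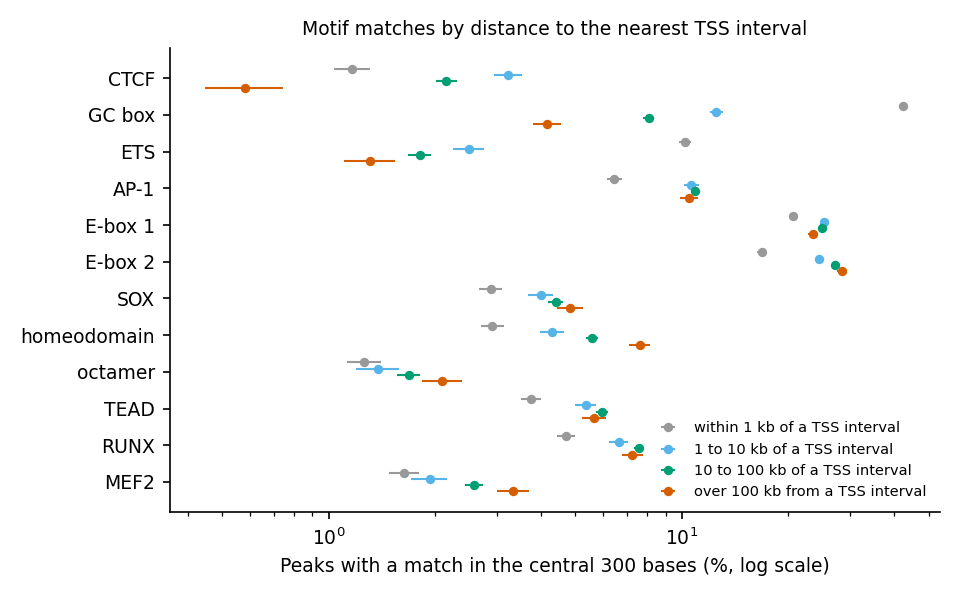
Share of autosomal peaks with a motif match in the central 300 bases (%, log axis, exact 95% intervals for counting error) for 12 motifs and 4 classes of distance to the nearest TSS interval; E-box 1 is CAGCTG and E-box 2 is CAGATG. TSS-distant peaks have the lowest share of CTCF matches, 0.581%, and the highest share of homeodomain matches, 7.60%.

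Folds in muscle-rich strips lay below 1 for TSS-distant peaks with each motif searched except NFI, whose 5 peaks had a fold of 1.45 (1.16 to 1.81). The 224 peaks with the octamer had a fold of 0.706 (0.673 to 0.741), the 811 with TAATTA 0.790 (0.771 to 0.809) and the 516 with the SOX letters 0.808 (0.783 to 0.833). The 772 with the RUNX letters had 0.959 (0.937 to 0.982) and the 443 with the GC box 0.955 (0.930 to 0.980). The 356 with the MEF2 consensus had 0.953 (0.919 to 0.987) and the 1119 with the AP-1 letters 0.910 (0.892 to 0.929). Over all TSS-distant peaks the fold was 0.842. Over other autosomal peaks the folds were 0.925 for the octamer, 0.898 for TAATTA and 1.05 for the MEF2 consensus. They were 1.06 for the GC box, 1.08 for the RUNX letters and 1.12 for the AP-1 letters. Motif sets share peaks, so these values are not independent of each other.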

How the data were processed

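The authors deposited 1 matrix of counts for 1993 barcodes, with UMI counts for 32285 genes and insertion counts for 91223 peaks, and 1 list of open chromatin fragments with the read pair count of each. Per the file headers both were made with cellranger-arc 2.0.1 on mm10 (GRCm38); the settings of peak calling and the choice of barcodes are not given in the sources used here. The paper does not describe this assay. Each fragment was counted once per peak. Distances ran from the peak's edge to the nearest TSS interval of the matrix. Gene bodies were from GENCODE M21, with RefSeq as an alternative, and sequences from the RefSeq GRCm38 assembly.

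Dispersions, folds and their conditional binomial, exact binomial and exact Poisson 95% intervals were computed with Python 3.11.15, numpy 2.4.6, scipy 1.17.1 and pandas 2.3.3, and tested on simulated data. With 1 library per assay and 1 genotype, no test between samples was possible. The peaks named were the 10 with most counts and, among those of at least 200 fragments, the 10 of highest dispersion and of highest and lowest fold. The 10 genes nearest to most peaks, the 10 holding most peaks, the 3 largest groups and the 3 longest stretches were named too. The peaks and gene lists were chosen with earlier results of these data known. Alternatives changed the distance limit, the annotation, the unit of counting, the depth minimum and the strips.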

Additional observations from a re-analysis of the deposited data

Results flagged for a closer look

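The fragment list held 507 barcodes that are not in the matrix, and TSS-distant peaks took 7.27% (7.21 to 7.33%) of their 760775 autosomal peak fragments, against 6.00% (5.98 to 6.01%) in the 1993 barcodes of the matrix. This stood out as a signal in barcodes that no comparison above used. Of all fragments of these barcodes 13.04% lay in autosomal peaks, against 18.7% in the matrix barcodes. The labels do not say how the matrix barcodes were chosen.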

How the results depend on the processing

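Of 84 alternatives over 9 results, 40 stayed within the limits set for a change and 44 moved the value. No alternative brought the fold of all TSS-distant peaks in muscle-rich strips to 1. The number of peaks was 21660 at a limit of 50 kb, 4097 at 200 kb, 3548 from the TSS of every GENCODE transcript and 20317 from protein-coding genes only. Their share of counts was 13.4%, 2.08%, 1.91% and 13.4% in that order. It was 6.06% with chromosome X, 6.05% from peak centers, 6.00% with fragments counted once, 6.01% with barcodes of at least 2000 UMIs, 6.43% with each barcode counted once per peak, and 5.94% without peaks of short fragments. The share in gene bodies was 47.1% at 50 kb, 31.2% at 200 kb, 40.2% with every transcript, 38.6% for protein-coding genes and 45.8% for RefSeq genes. The share with a CTCF match was 1.04%, 0.439% and 0.282% at 50 kb, 200 kb and with every transcript, 0.806% over whole peaks and 2.93% with 1 mismatch allowed. A gap of 20 kb gave 5832 groups.

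The share past the dispersion limit was 66.7% with every transcript (8 of 12 peaks) and 16.7% with at least 400 fragments (2 of 12). It was 94.8% on raw counts, which count both ends of a fragment, and 58.1% with at least 50 fragments, where counting error weighs more. It was 69.4% at a limit of 0.05, 9.68% at 0.2 and 3.23% over first barcode segments. The share at least 2 times higher was 0% at 200 kb (0 of 20) and with every transcript (0 of 12). The share at least 2 times lower was 33.3% with every transcript (4 of 12) and 8.33% with at least 400 fragments (1 of 12). The fold was 0.889 at 50 kb, 0.804 at 200 kb, 0.817 with every transcript, 0.872 relative to all fragments, 0.828 with 3 muscle-rich strips and 0.833 to 0.852 with each muscle-rich strip left out in turn. The cause of these changes was not tested. The alternatives for the fold, for short fragments, for protein-coding or RefSeq gene bodies, for 50 fragments, for CTCF matches at 40 to 50% GC and for dispersion over strips of at least 20000 fragments were chosen after seeing the data. Depth limited what single peaks could show, since 62 reached 200 fragments. No paired analysis was possible because each assay had 1 library.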
